A study of Homo sapiens with 7 samples.

Results

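YAP1, WWTR1 (the gene of the protein called TAZ), TEAD1 to TEAD4 and the target genes CYR61, CTGF, ANKRD1 and AMOTL2 are the 10 genes described here, of 28517 named entries in the expression tables. They were chosen by symbol, as the transcriptional arm of the Hippo pathway and genes widely used as its readout. Of the 10, the 4 TEAD genes, CYR61 and AMOTL2 had a mean of at least 0.5 RPKM (reads per kilobase of the entry, scaled to the total count of the library) over the libraries that could be tested. YAP1, WWTR1, CTGF and ANKRD1 did not reach that level.

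In the Hippo pathway the kinases MST1 and MST2 (genes STK4 and STK3) act with LATS1 and LATS2 to phosphorylate YAP and TAZ, which keeps them out of the nucleus. Unphosphorylated YAP and TAZ enter the nucleus and bind DNA through TEAD factors, which they need because they have no DNA-binding domain of their own. CTGF, CYR61, ANKRD1 and AMOTL2 are among the genes they activate. In neuroblastoma, YAP and TAZ are known mainly from mesenchymal-type cells, whereas adrenergic-type cells express genes of the sympathetic nerve lineage.

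RNA was sequenced from NGP, a human neuroblastoma cell line, to compare cells with mutations of ARID1A, a DNA-binding subunit of the BAF chromatin remodelling complex, with control cells. There were 7 libraries: ARID1A-/- line 1 (2), ARID1A-/- line 2 (2), ARID1A+/- (1) and control (2). Every line was grown with serum, penicillin-streptomycin and puromycin, and each replicated line had 1 library made with the SMARTer kit and 1 with the KAPA kit, while the ARID1A+/- library was KAPA. The labels do not say how the mutations were made, whether a line is 1 clone, or whether both libraries of a line are from different cultures. The p-values therefore cover only library-to-library spread, which may be technical. All comparisons use a single control line.

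Total counts were 28892053 to 41401185 in the ARID1A-/- libraries, 33032528 in the ARID1A+/- library and 24445301 to 43644361 in the control libraries. ARID1A itself had 16.7 and 17.2 RPKM in line 1 and 14.2 and 13.8 RPKM in line 2, against 22.3 and 22.0 RPKM in control (SMARTer first, then KAPA). The ARID1A+/- library had 19.9 RPKM, 0.906 times the KAPA control. RNA is still made from the mutated gene, so its level checks the labels only weakly. Its log2 fold change over both lines was -0.54 ± 0.09 (SE, n = 4 and 2 libraries, edgeR adjusted p = 0.012), a call lost without either control library (-0.55 and -0.56, adjusted p = 0.134 and 0.0991), without either line 2 library (-0.54 and -0.55, adjusted p = 0.0558 and 0.059) and with no term for kit (-0.54, adjusted p = 0.103). In line 1 alone ARID1A was not called (-0.38 ± 0.11, edgeR adjusted p = 0.0663). In line 2 alone it was (-0.70 ± 0.11, edgeR adjusted p = 0.0094), and that call was lost in the same settings. The neuroblastoma label held in each group: 10 or 11 of 13 adrenergic markers averaged at least 1 RPKM, with HAND2 at 276 to 349 RPKM and GATA3 at 70.8 to 154 RPKM over the 7 libraries. None of 6 endothelial and none of 6 epithelial markers reached that mean in any group, and 1 of 6 immune markers did in each (CD68). Of 6 Schwann cell markers NGFR reached it in line 1, ARID1A+/- and control and none in line 2, and the list summed to 0.597 to 3.26 RPKM in the ARID1A-/- lines and 30.2 RPKM in ARID1A+/-, against 30.1 to 41.5 RPKM in control. NGFR, a neurotrophin receptor, fell by 5.09 ± 0.34 (log2 scale, edgeR adjusted p = 0.00039), while SOX10 had at most 4 counts in any library. The part of the Schwann cell markers in the differences of the TEAD genes and AMOTL2 was not tested.

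The targets are shown first by their promoters, because TEAD factors recognise a short motif, GGAATG, that is found upstream of classical YAP and TAZ targets. The RefSeq promoter table (GRCh38.p14) had windows for YAP1, WWTR1, TEAD2, TEAD3, CTGF, ANKRD1 and AMOTL2 and none for TEAD1, TEAD4 and CYR61. The last 250 bases before each annotated start are given, 5′ to 3′ on the gene's strand, with every match in capitals. The letters were searched on both strands, so that a match on the opposite strand reads CATTCC, and no other motif was searched. Of 35116 RefSeq windows of that length, 11.9% held at least 1 match, 0.94% at least 2 and 0.0826% at least 3. These sequences are on another genome build than the counts and were not used to place reads. The 4 windows with a match are of CTGF (chr6:131951373-131951622, minus strand), ANKRD1 (chr10:90921088-90921337, minus strand), AMOTL2 (chr3:134374448-134374697, minus strand) and YAP1 (chr11:102110197-102110446, plus strand):
CTGF: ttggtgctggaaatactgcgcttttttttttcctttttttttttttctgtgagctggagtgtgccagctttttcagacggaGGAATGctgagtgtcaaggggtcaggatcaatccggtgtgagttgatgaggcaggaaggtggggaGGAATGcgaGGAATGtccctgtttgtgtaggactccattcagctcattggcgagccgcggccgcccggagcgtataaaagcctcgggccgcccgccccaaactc
ANKRD1: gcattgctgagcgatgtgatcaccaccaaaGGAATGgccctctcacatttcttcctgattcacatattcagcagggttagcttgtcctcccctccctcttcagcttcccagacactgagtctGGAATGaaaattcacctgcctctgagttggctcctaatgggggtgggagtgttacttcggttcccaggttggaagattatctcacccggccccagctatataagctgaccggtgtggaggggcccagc
AMOTL2: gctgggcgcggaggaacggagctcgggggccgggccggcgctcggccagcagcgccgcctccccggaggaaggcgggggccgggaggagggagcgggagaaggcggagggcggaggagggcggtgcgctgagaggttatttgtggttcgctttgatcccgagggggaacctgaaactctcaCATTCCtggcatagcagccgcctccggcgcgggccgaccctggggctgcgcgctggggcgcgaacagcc
YAP1: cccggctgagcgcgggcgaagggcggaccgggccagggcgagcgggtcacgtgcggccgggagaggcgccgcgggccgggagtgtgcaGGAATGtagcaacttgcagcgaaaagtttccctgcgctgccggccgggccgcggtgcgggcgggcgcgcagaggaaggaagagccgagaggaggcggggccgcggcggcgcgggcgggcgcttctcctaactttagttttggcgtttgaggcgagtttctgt
The CTGF window held 3 matches, ANKRD1 2, and AMOTL2 and YAP1 1 each. A window at another annotated AMOTL2 start held none, and neither did those of WWTR1, TEAD2 and TEAD3. A match is a description of these letters, not a bound site.

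The coactivators were at or near zero in every library, whatever the ARID1A genotype. YAP1 had 4 and 1 counts in ARID1A-/- line 1, 0 and 0 in line 2, 0 in ARID1A+/- and 3 and 0 in control cells, in each pair SMARTer first. WWTR1 had 6 and 6 counts in line 1, 1 and 4 in line 2, 1 in ARID1A+/- and 4 and 0 in control cells. The highest level of WWTR1 was 0.0346 RPKM, in the KAPA library of line 1, and that of YAP1 was 0.0169 RPKM. A count of 0 allows up to 3 counts, which is 0.0120 to 0.0215 RPKM for YAP1 and 0.0126 to 0.0226 RPKM for WWTR1 across the libraries (counting error only). Over the 7 libraries together YAP1 had 8 counts, and 32.1% of all entries had no more than that. In a fit with no filter on low values neither passed the test over both lines (edgeR adjusted p = 0.636 for YAP1 and 0.712 for WWTR1), where 4.55% of entries were called higher and 9.35% lower, and at this depth a difference between genotypes was not detectable. The entry named TAZ in the tables is tafazzin, a mitochondrial enzyme, and not the coactivator. Reads of WWTR1 could include its antisense gene WWTR1-AS1, which overlaps it and was at 0 in all libraries.

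**Figure D1:**
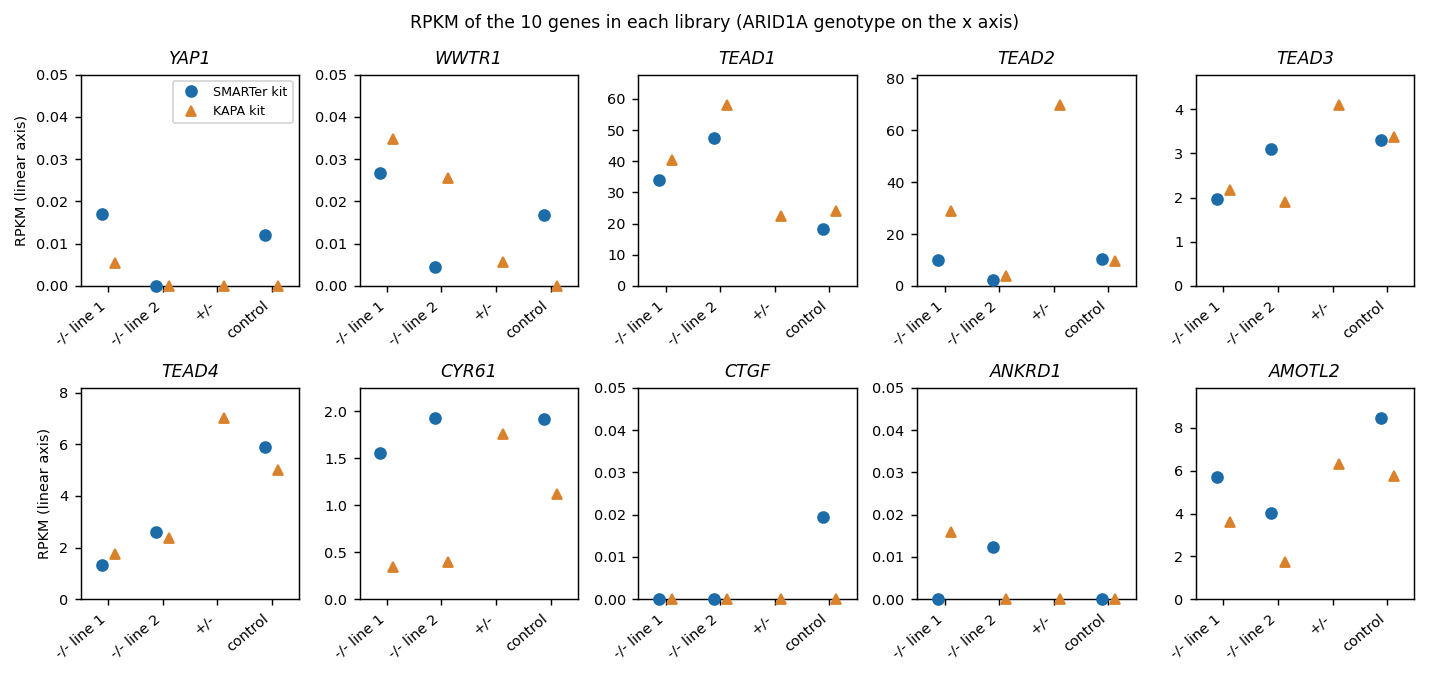
Deposited RPKM of the 10 genes, 1 panel a gene, with 1 point per library (left to right ARID1A-/- line 1, ARID1A-/- line 2, ARID1A+/- and control; marker shape gives the kit). YAP1, WWTR1, CTGF and ANKRD1 lie at or close to 0 (their axes end at 0.05 RPKM), TEAD1 is above both controls in all 4 ARID1A-/- libraries and TEAD4 below them, and TEAD2 peaks at 69.9 RPKM in the ARID1A+/- library.

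The DNA-binding partners were expressed and changed in opposite directions. Over both ARID1A-/- lines TEAD1 rose and TEAD4 fell, TEAD2 differed between the lines, and TEAD3 did not pass the test. In all, 3 of the 6 genes that could be tested were called over both lines, 1 higher and 2 lower (TEAD1, TEAD4 and AMOTL2), where 14.2% of the 14711 genes tested were called, 4.64% higher and 9.57% lower. Line 1 alone gave 2 calls, TEAD1 higher and TEAD4 lower, where 13% of genes were called (4.75% higher and 8.27% lower). Line 2 alone gave 4, TEAD1 higher and TEAD2, TEAD4 and AMOTL2 lower, where 14% were called (5.47% higher and 8.52% lower). Between the lines 2 were called, TEAD2 and AMOTL2, both higher in line 1, where 12.8% of genes were called (5.71% higher in line 1 and 7.1% lower). A call means an adjusted p below 0.05 in edgeR's quasi-likelihood test with kit as a term and Benjamini-Hochberg adjustment over all tested genes.

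TEAD1, the family member most widely expressed in adult tissues, had 34.1 and 40.5 RPKM in line 1, 47.3 and 58.1 RPKM in line 2 and 22.4 RPKM in ARID1A+/-, against 18.4 and 24.1 RPKM in control (SMARTer first). All 4 ARID1A-/- libraries were above both controls, which 10.2% of tested genes also showed, and line 2 was above line 1 in both kits. KAPA levels were 1.19, 1.23 and 1.31 times SMARTer levels in line 1, line 2 and control, and 42.4% of genes were likewise higher with KAPA in all 3 groups. Over both lines the log2 fold change was 1.05 ± 0.11 (SE, n = 4 and 2, edgeR adjusted p = 0.0018). It was 0.83 ± 0.12 in line 1 (adjusted p = 0.0075) and 1.28 ± 0.12 in line 2 (adjusted p = 0.0016), each with n = 2 and 2. The difference of the lines, -0.45 ± 0.12, missed the threshold (edgeR adjusted p = 0.0532), but passed it in DESeq2 and limma (adjusted p = 0.0123 and at most 0.0384). The combined call and that of line 2 held in all 15 other settings. The call in line 1 was lost without the SMARTer control (0.75, adjusted p = 0.0898), without the KAPA control (0.88, adjusted p = 0.0541) and with no term for kit (0.82, adjusted p = 0.0648).

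TEAD4, known for its part in the trophectoderm of the early embryo and in muscle, had 1.34 and 1.76 RPKM in line 1, 2.61 and 2.39 RPKM in line 2 and 7.02 RPKM in ARID1A+/-, against 5.90 and 5.02 RPKM in control. The ARID1A-/- libraries were all below both controls, as were 11.6% of tested genes, and the ARID1A+/- library was above them. Over both lines TEAD4 fell by 1.49 ± 0.19 (log2 scale, SE, n = 4 and 2, edgeR adjusted p = 0.0045). In line 1 it fell by 1.82 ± 0.24 (adjusted p = 0.0058) and in line 2 by 1.16 ± 0.23 (edgeR adjusted p = 0.0228), and the lines did not differ past the threshold (-0.65 ± 0.24, adjusted p = 0.132). Without the SMARTer control none of these 3 calls held, with -1.32 over both lines (adjusted p = 0.117), -1.65 in line 1 (adjusted p = 0.0791) and -0.99 in line 2 (edgeR adjusted p = 0.222). The call in line 2 was also lost without any other library of that comparison (-1.34 to -1.11, adjusted p = 0.0861 to 0.142) and with no term for kit (-1.17, adjusted p = 0.0902).

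TEAD2, best known from the embryo and from neural progenitors, had 9.82 and 28.97 RPKM in line 1, 2.36 and 4.01 RPKM in line 2 and 69.9 RPKM in ARID1A+/-, against 10.4 and 9.71 RPKM in control. Line 2 was below control in both kits, while line 1 was above control in KAPA (a log2 ratio of 1.58) and close to it in SMARTer (-0.09). The fold change was 0.74 ± 0.35 in line 1 (edgeR adjusted p = 0.215) and -1.81 ± 0.36 in line 2 (adjusted p = 0.0226), on the log2 scale with n = 2 and 2. The lines themselves differed by 2.55 ± 0.37, higher in line 1 (edgeR adjusted p = 0.0080). That difference held in all 15 other settings, between 1.88 and 3.08. Within line 1 the KAPA level was 2.95 times the SMARTer level, against 1.70 times in line 2 and 0.930 times in control, with a median over all genes of 1.15, 1.08 and 1.10. Without the SMARTer library of line 1, line 1 passed the test above control (1.33, edgeR adjusted p = 0.00925). The call in line 2 was lost without the SMARTer control (-1.12, adjusted p = 0.135), without either line 2 library (-1.77 and -1.86, adjusted p = 0.0737 and 0.0868) and with no term for kit (-1.72, adjusted p = 0.118). Over both lines the value was -0.53 ± 0.30 (edgeR adjusted p = 0.286), and it turned positive without the SMARTer control (0.14) and passed the test without the KAPA library of line 1 (-0.81, adjusted p = 0.0138). CD37 overlaps TEAD2 on the opposite strand and was at 0.00967 to 0.447 RPKM.

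TEAD3, a member known from placenta, had 1.96 and 2.17 RPKM in line 1, 3.09 and 1.90 RPKM in line 2 and 4.10 RPKM in ARID1A+/-, against 3.29 and 3.36 RPKM in control. All 4 ARID1A-/- libraries were below both controls, narrowly so for the SMARTer library of line 2, as were 11.6% of tested genes. The fold change over both lines, -0.58 ± 0.19 on the log2 scale, did not pass the test (edgeR adjusted p = 0.0999). That change passed without the KAPA library of line 1 (-0.69) and without the SMARTer library of line 2 (-0.78).

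**Figure D2:**
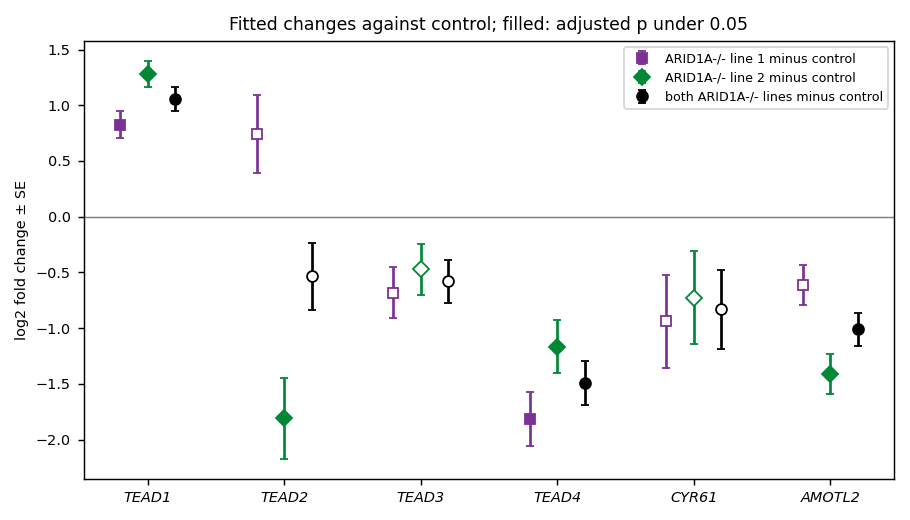
Log2 fold change against control (points) with its standard error (bars) for the 6 testable genes in ARID1A-/- line 1, ARID1A-/- line 2 and both lines together; filled points passed the adjusted p threshold of 0.05. TEAD1 lies above 0 and TEAD4 below 0 throughout, and TEAD2 lies on opposite sides of 0 in the 2 lines (0.74 and -1.81).

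Summed over the family, TEAD RNA lay above both controls in all 5 mutant libraries, and its make-up differed. For single genes, 10.2% of those tested had all 4 ARID1A-/- libraries above both controls. No test was made on the TEAD sums. The 4 genes added up to 47.2 and 73.4 RPKM in line 1, 55.4 and 66.4 RPKM in line 2 and 103 RPKM in ARID1A+/-, against 38.0 and 42.2 RPKM in control. TEAD1 supplied 72.2% and 55.2% of that sum in line 1, 85.4% and 87.5% in line 2 and 21.7% in ARID1A+/-, against 48.4% and 57.1% in control. TEAD4 supplied 2.84% and 2.39% of it in line 1, then 4.72% and 3.59% in line 2 and 6.79% in ARID1A+/-, against 15.5% and 11.9% in control. In 6 libraries TEAD1 was the highest of the 4, by 1.40 times over TEAD2 in the KAPA library of line 1 and by 15.3 times over the next gene in the SMARTer library of line 2. In the ARID1A+/- library TEAD2 was the highest, at 3.11 times TEAD1.

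**Figure D3:**
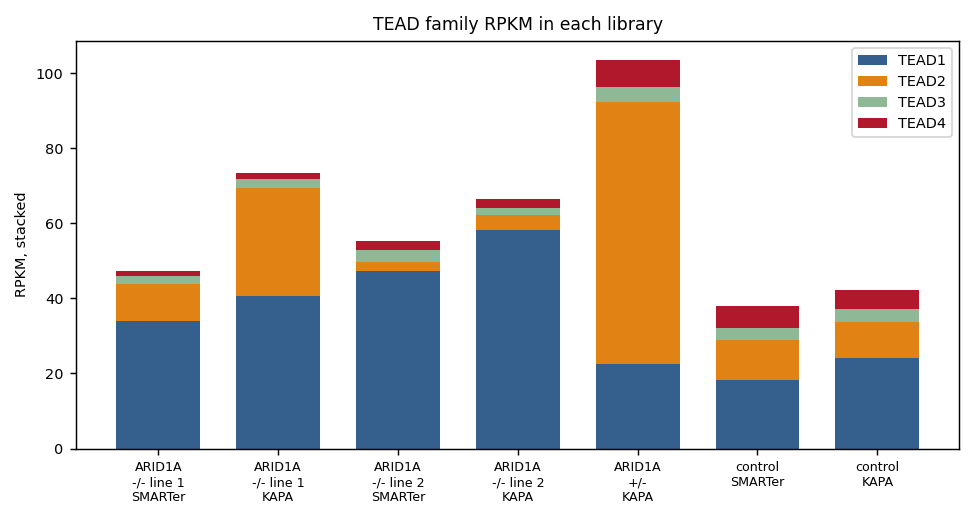
Stacked RPKM of TEAD1 to TEAD4 in each library, with ARID1A-/- line 1, ARID1A-/- line 2, ARID1A+/- and control from left to right. TEAD1 makes up 85.4% and 87.5% of the sum in line 2, and TEAD2 makes up 67.6% of it in ARID1A+/-.

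Of the 4 targets AMOTL2 fell, CYR61 did not pass the test, and CTGF and ANKRD1 were not at a measurable level. CTGF (CCN2), a secreted matricellular protein whose promoter carries the 3 matches shown above, had 0 counts in both ARID1A-/- lines and in ARID1A+/-, against 2 and 0 counts in control. ANKRD1, a cardiac and skeletal muscle ankyrin repeat protein, had 0 and 1 counts in line 1, 1 and 0 in line 2 and 0 in ARID1A+/-, against 0 and 0 in control. All of these are under the 3 counts that a count of 0 allows, which stand for 0.0293 to 0.0524 RPKM for CTGF and 0.0348 to 0.0622 RPKM for ANKRD1, so no fold is given.

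AMOTL2, an angiomotin that binds YAP and is itself a YAP target, fell over both lines. It had 5.72 and 3.62 RPKM in line 1, 4.05 and 1.75 RPKM in line 2 and 6.32 RPKM in ARID1A+/-, against 8.46 and 5.73 RPKM in control. All 4 ARID1A-/- libraries were below both controls, narrowly so for the SMARTer library of line 1, as were 11.6% of tested genes. SMARTer values were 1.58, 2.32 and 1.48 times KAPA values in line 1, line 2 and control. The log2 fold change was -1.01 ± 0.15 over both lines (n = 4 and 2, edgeR adjusted p = 0.0075), -0.61 ± 0.18 in line 1 (adjusted p = 0.0706) and -1.41 ± 0.18 in line 2 (adjusted p = 0.0047). Line 1 passed in DESeq2 (-0.61, adjusted p = 0.0384). Line 1 was also higher than line 2 by 0.80 ± 0.18 (edgeR adjusted p = 0.0335). The combined call was lost without the SMARTer control (-1.22, adjusted p = 0.0677), without the KAPA control (-0.84, edgeR adjusted p = 0.104) and with no term for kit (-0.96, adjusted p = 0.321), and with no kit term the call in line 2 was lost too (-1.32, adjusted p = 0.253). The difference of the lines was lost without the KAPA library of line 2 (0.56, adjusted p = 0.2002), without either control library (0.81 each, adjusted p = 0.0668 and 0.0516), with no term for kit (0.73, adjusted p = 0.579) and in limma (adjusted p = 0.0631 to 0.0678).

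CYR61 (CCN1), a secreted protein of the same family as CTGF, did not pass the test in either line and varied with the kit. It had 1.56 and 0.342 RPKM in line 1, 1.93 and 0.392 RPKM in line 2 and 1.76 RPKM in ARID1A+/-, against 1.92 and 1.12 RPKM in control. The SMARTer level was 4.56 times the KAPA level in line 1, 4.91 times in line 2 and 1.71 times in control, and 16.8% of all tested genes were likewise lower with KAPA in all 3 groups. Against the control of the same kit the log2 ratio was -0.30 in line 1 and 0.0068 in line 2 with SMARTer, and -1.72 in line 1 and -1.52 in line 2 with KAPA. The fit gave -0.83 ± 0.36 over both lines (edgeR adjusted p = 0.174), -0.94 ± 0.42 in line 1 (adjusted p = 0.192) and -0.73 ± 0.42 in line 2 (adjusted p = 0.292), none past the threshold. The 2 KAPA libraries of the ARID1A-/- lines rest on 25 and 26 counts, against 63 in the KAPA control.

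The ARID1A+/- line has 1 library, so its ratios to the KAPA control compare those libraries, have no replicate check and carry a 95% exact binomial interval for counting error only. TEAD2 was 7.20 times the control level (6.63 to 7.82). Of 14545 entries with a mean of at least 0.5 RPKM over the ARID1A+/- and KAPA control libraries, 0.619% reached that ratio. The TEAD2 level was also above the 4 ARID1A-/- libraries, which spanned 2.36 to 28.97 RPKM. The other 5 expressed genes stayed within 2-fold, past which 9.88% of the same entries lay (4.46% higher and 5.42% lower). TEAD1 was at 0.931 times the control level (0.900 to 0.962), where the ARID1A-/- lines were higher than control. TEAD4 was at 1.40 times (1.20 to 1.63), where those lines were lower. TEAD3, CYR61 and AMOTL2 were at 1.22 (1.07 to 1.38), 1.56 (1.15 to 2.14) and 1.10 (1.01 to 1.21) times the control level. Of the genes near TEAD2 on chromosome 19, DKKL1 was at 0.223 RPKM in ARID1A+/- against 0 in the KAPA control. CD37 was at 0.245 against 0.0686 RPKM and PIH1D1 at 39.7 against 38.5 RPKM. SLC6A16 was at 0.0963 against 0.0260 RPKM, SLC17A7 at 0.0120 against 0.00812 RPKM and TRPM4 at 0.00700 against 0.00946 RPKM. PTH2 and MIR4324 were at 0 in both. All of these except PIH1D1 lay under 0.5 RPKM here. CD37 overlaps TEAD2, and whether reads were assigned by strand is not given.

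Around these genes, most of the upstream pathway did not pass the test. Of 14 Hippo kinases, adaptors and scaffolds, 13 could be tested; over both lines none rose, 3 fell and 10 did not pass, beside 4.64% higher and 9.57% lower over all genes, and the median log2 fold change was 0.10 against 0.02 over all genes. STK4, the kinase MST1, had 6.94 and 11.5 RPKM in line 1, 8.75 and 10.4 RPKM in line 2 and 10.1 RPKM in ARID1A+/-, against 12.5 and 17.6 RPKM in control, and fell by 0.70 ± 0.11 (log2 scale, edgeR adjusted p = 0.0097). WWC1 (KIBRA), an activator of LATS kinases, had 2.56 and 3.24 RPKM in line 1, 3.48 and 4.14 RPKM in line 2 and 4.89 RPKM in ARID1A+/-, against 6.08 and 5.84 RPKM in control (-0.87 ± 0.13, edgeR adjusted p = 0.0082). FRMD6, a FERM-domain protein upstream of the kinases, had 1.01 and 2.54 RPKM in line 1, 0.495 and 0.738 RPKM in line 2 and 2.51 RPKM in ARID1A+/-, against 2.18 and 2.14 RPKM in control. The KAPA library of line 1 was above both controls and line 2 below them. The value over both lines, -1.17 ± 0.27 (edgeR adjusted p = 0.033), combines -1.91 ± 0.33 in line 2 (adjusted p = 0.0137) with -0.43 ± 0.31 in line 1 (adjusted p = 0.41, not called), and the lines differed past the threshold. All 3 calls were lost without the SMARTer control (-0.72, -0.71 and -0.66, adjusted p = 0.127, 0.157 and 0.356 for STK4, WWC1 and FRMD6). That of STK4 was also lost without the KAPA control (-0.70, adjusted p = 0.0968) and that of FRMD6 without either line 2 library (-1.18 and -1.17, adjusted p = 0.0547 and 0.0646). With no term for kit STK4 (-0.69, adjusted p = 0.112) and FRMD6 (-1.10, edgeR adjusted p = 0.152) were not called. FRMD6 was not called in limma either (adjusted p = 0.0786 to 0.094). In line 1 alone 2 of the 13 fell and 1 rose (8.27% and 4.75% over all genes), and in line 2 alone 3 fell and none rose (8.52% and 5.47%). The gene that rose in line 1, TAOK2 (0.48, edgeR adjusted p = 0.0457), was named after its value was seen. Its call held in 4 of 15 other settings and was lost without each of the 6 libraries (0.38 to 0.55), in limma, with upper-quartile scaling and with no term for kit (edgeR and limma adjusted p = 0.0536 to 0.322).

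Other YAP and TEAD targets from a list of 20 were divided. Of the 9 that could be tested, 3 rose, 3 fell and 3 did not pass over both lines, beside 4.64% higher and 9.57% lower over all genes, with a median of 0.02 beside 0.02. IGFBP3, a secreted binding protein of insulin-like growth factors, had 16.7 and 17.2 RPKM in line 1, 62.4 and 55.4 RPKM in line 2 and 23.6 RPKM in ARID1A+/-, against 5.13 and 1.28 RPKM in control (3.39 ± 0.43 on the log2 scale, edgeR adjusted p = 0.0042). It was above both controls in all 5 mutant libraries, where 10.2% of tested genes had all 4 ARID1A-/- libraries above them. The call held without any 1 library (2.63 to 4.56). RBMS3, an RNA-binding protein, rose by 1.13 ± 0.20 (adjusted p = 0.0132), and THBS1, the matrix protein thrombospondin 1, by 2.75 ± 0.62 (edgeR adjusted p = 0.0315). ARHGEF17 fell by 1.14 ± 0.11 (edgeR adjusted p = 0.0016), F3, tissue factor, by 1.49 ± 0.34 (adjusted p = 0.034) and FJX1 by 0.42 ± 0.10 (adjusted p = 0.0361). Without the SMARTer control the calls of RBMS3 (0.78), THBS1 (2.79), ARHGEF17 (-1.07), F3 (-0.88) and FJX1 (-0.49) were lost (edgeR adjusted p = 0.0562 to 0.35). Those of THBS1 (2.70) and FJX1 (-0.38) were also lost without the KAPA control, and those of F3 (-1.46 and -1.52) and FJX1 (-0.42 and -0.43) without either line 2 library. With no term for kit these 5 calls were lost as well (edgeR adjusted p = 0.0701 to 0.656). In limma F3 was not called at any pseudocount (adjusted p = 0.0815 to 0.0849), and THBS1 was not called at 1 and 0.5 (adjusted p = 0.0817 and 0.0643). In line 1 alone 3 of the 9 rose (IGFBP3, THBS1 and MYOF) and 1 fell (FJX1), beside 4.75% and 8.27% over all genes. There RBMS3 (0.80), ARHGEF17 (-0.46) and F3 (-0.97) were not called (edgeR adjusted p = 0.0579, 0.0733 and 0.165). In line 2 alone 3 rose (IGFBP3, THBS1 and RBMS3) and 2 fell (ARHGEF17 and F3), beside 5.47% and 8.52%. FJX1 was not called in line 2 (-0.38, edgeR adjusted p = 0.0752). THBS1 and FJX1 are named because they complete the count and were chosen after their values were seen.

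MYOF, a membrane repair protein on the same list, differed between the lines as TEAD2 did. It had 13.4 and 16.4 RPKM in line 1, 1.95 and 1.93 RPKM in line 2 and 0.0169 RPKM in ARID1A+/-, against 5.92 and 2.67 RPKM in control. Line 1 was above control by 1.85 ± 0.32 (log2 scale, edgeR adjusted p = 0.0148), line 2 lay at -1.14 ± 0.33 (adjusted p = 0.064), and the lines differed by 2.998 ± 0.34 (edgeR adjusted p = 0.0036). Line 2 passed below control without the KAPA control (-1.72) and without either line 1 library (-1.09 and -1.10, edgeR adjusted p at most 0.0082), in DESeq2 (-1.14, adjusted p = 0.0026) and with no filter (-1.12, edgeR adjusted p = 0.0245). With no term for kit the call of line 1 was lost (1.75, edgeR adjusted p = 0.0777). Of 10 fibroblast markers 7 could be tested. Between the lines 3 were called, all higher in line 1, and 4 did not pass. Over all genes 5.71% were higher in line 1 and 7.1% lower. Over both lines 3 were higher than control, DCN (4.38), LUM (1.99) and COL3A1 (0.99), with edgeR adjusted p of 0.0030, 0.00086 and 0.0108. PDGFRB was lower (-0.77, adjusted p = 0.0213) and 3 did not pass, beside 4.64% higher and 9.57% lower over all genes. COL3A1 was not called in line 2 (-0.19), nor PDGFRB in line 1 (-0.58). In all, 7 of 10 averaged at least 1 RPKM in each line and in ARID1A+/-, and 6 in control, and they summed to 224 to 246 RPKM in line 1, 62.0 to 65.6 RPKM in line 2 and 111 RPKM in ARID1A+/-, against 100 to 101 RPKM in control. COL1A1 carried much of those untested sums, with 156 and 171 RPKM in line 1, 30.3 and 19.9 RPKM in line 2 and 17.1 RPKM in ARID1A+/-, against 60.2 and 62.6 RPKM in control. PDGFRA was at 6.83 to 32.7 RPKM and THY1 at 17.1 to 26.3 RPKM, while FAP was at 0 in all 7 libraries. COL1A2 had at most 6 counts. The part of the fibroblast markers in the differences of TEAD2, AMOTL2 and MYOF was not tested. More cells of a type and more RNA per cell cannot be told apart in these bulk libraries.

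**Figure D4:**
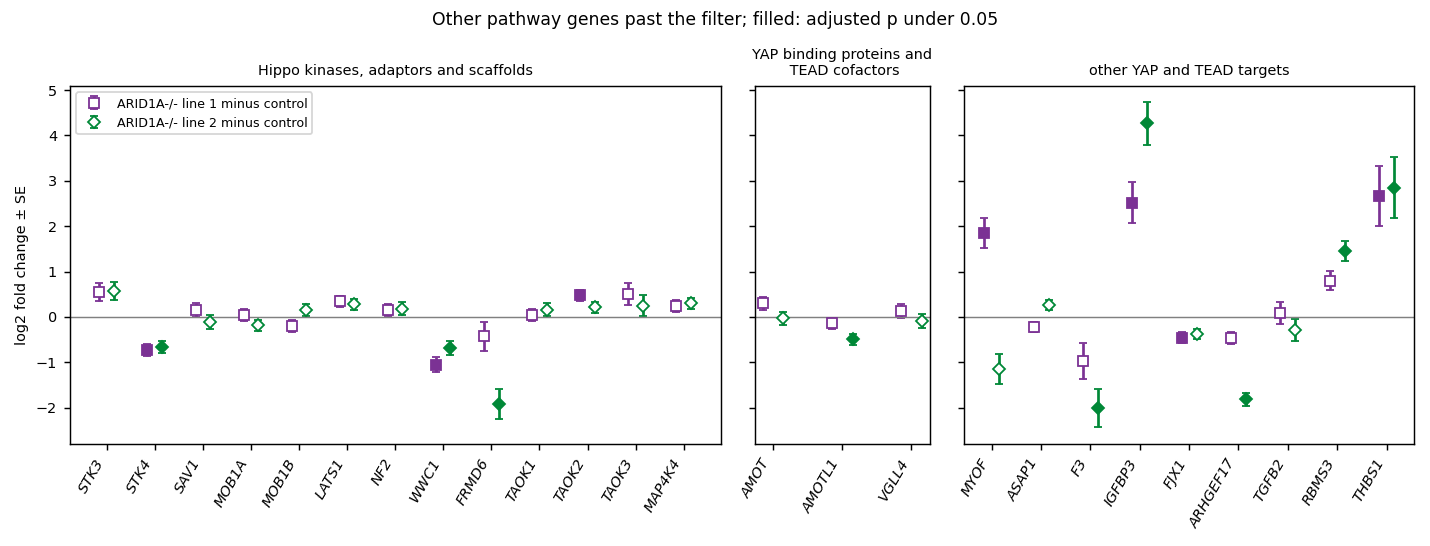
Log2 fold change against control of the other tested pathway genes, in ARID1A-/- line 1 and ARID1A-/- line 2, grouped by list; filled points passed the adjusted p threshold of 0.05. IGFBP3 lies above 0 in both lines, STK4 and WWC1 below 0 in both, and MYOF on opposite sides of 0 (1.85 and -1.14).

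Among 7 YAP binding proteins and TEAD cofactors, 3 could be tested and none passed over both lines, beside 4.64% higher and 9.57% lower over all genes. AMOTL1, an angiomotin like AMOTL2, passed in line 2 alone (-0.50 ± 0.12, edgeR adjusted p = 0.0439), where 8.52% of genes were lower, and was named after its value was seen. That result was lost without either control library (-0.54 and -0.48), without either line 2 library (-0.65 and -0.38), in limma and with no term for kit (-0.51, edgeR and limma adjusted p = 0.08 to 0.379 in all). Another 4 genes of the CCN family stayed under the filter. Of 13 genes listed for actin, SRF and its targets, a programme that shares targets with YAP, 7 could be tested. Over both lines 1 rose and none fell, where 4.64% of all genes were higher and 9.57% lower. The gene that rose was MKL2, a coactivator of SRF (0.47 ± 0.12, edgeR adjusted p = 0.0499). That call was lost in 11 of the 15 other settings, among them without either control library (0.59 and 0.33) and without either line 2 library (0.51 and 0.44).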

How the data were processed

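HISAT2 2.1.0 and the genome build hg19 are named in the submitters' processing notes. How reads were assigned to entries, and whether by strand, is not given in the sources used here. Reads were single-end and 75 bases long, per the labels' protocols. The labels name polyadenylated RNA, while their protocols speak of ribosomal RNA removal. Per the file headers, the authors deposited a whole-number count and an RPKM value for each entry of each library, and RPKM equals the count divided by entry length and library total to within 0.000501%.

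Entries with a mean of at least 0.5 RPKM over the 6 ARID1A-/- and control libraries were tested. edgeR 4.0.16 (R 4.3.3) was run on the counts by its quasi-likelihood test, with TMM scaling and a model of group plus kit, which left 2 residual degrees of freedom. Control was subtracted from the mean of the ARID1A-/- lines and from each of them, and line 2 from line 1. Benjamini-Hochberg adjustment ran over 14711 genes, with a threshold of 0.05. The standard error of a log2 fold change is its size divided by the square root of F. The scripts were tested on simulated data. Kit is the only batch the labels give. Libraries of the same kit deviated together, with correlations of 0.447, 0.510 and 0.628 between the kit differences of the 3 groups, so kit pairs the libraries. In no replicated group did the SMARTer and the KAPA library agree within sampling noise. Each such pair differs in kit, so kit and other spread cannot be told apart there.

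Genes named beside the 10 members were those past the threshold over both lines or between the lines, at most 6 per list by smallest p, plus THBS1, FJX1, TAOK2, AMOTL1, marker genes and genes under the filter, chosen later. The members, lists and tests were chosen with earlier results of these data known. The alternatives were DESeq2 1.42.0, limma 3.58.1 on log2(RPKM + 1), log2(RPKM + 0.5) and log2(RPKM + 0.1), RLE and upper-quartile scaling, a mean of at least 1 RPKM, no filter, no kit term, and leaving out each of the 6 libraries.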

Additional observations from a re-analysis of the deposited data

Results flagged for a closer look

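Each of the following is a difference between the ARID1A-/- lines that passed edgeR's test of the difference itself (line 1 minus line 2, log2 scale, adjusted p below 0.05). No explanation was tested. TEAD2 was higher in line 1 by 2.55 and AMOTL2 by 0.80. Among other pathway genes, MYOF was higher in line 1 by 2.998 and FRMD6 by 1.48, and ARHGEF17 by 1.36. IGFBP3 differed by -1.75 and SRF by -0.64, both higher in line 2, as was ASAP1 at -0.49. The calls of TEAD2 and MYOF held in all 15 other settings. With no term for kit the calls of AMOTL2 (0.73), FRMD6 (1.53), ARHGEF17 (1.34), IGFBP3 (-1.76), SRF (-0.64) and ASAP1 (-0.50) were lost (edgeR adjusted p = 0.0876 to 0.579), and that was the only loss for ARHGEF17. FRMD6 was also lost without either line 2 library (1.505 and 1.488), without the KAPA library of line 1 (0.92) and in limma (0.72 to 1.27). IGFBP3 was lost without the KAPA library of line 2 (-1.31), in DESeq2 (-1.73) and in limma with a pseudocount of 0.1 (-1.79). SRF was lost without either line 2 library (-0.70 and -0.56). ASAP1 was lost without either control library (-0.49 each), without either line 2 library (-0.46 and -0.50) and without the SMARTer library of line 1 (-0.49). The other losses of AMOTL2 are given with its values above.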

How the results depend on the processing

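Of 360 values of the 6 testable genes (4 contrasts under 15 other settings), 320 kept their direction and side of the threshold, 25 lost the call, 11 gained it and 4 changed sign. The count of genes called over both lines was 592 with no term for kit and 3147 with no filter, and lay between 348 and 3570 when 1 library was left out. With no term for kit it was 475 for line 1, 519 for line 2 and 404 between the lines. Leaving out 1 library gave 436 to 3028 for line 1, 408 to 3738 for line 2 and 772 to 2407 between the lines. The count of the 10 genes called was 1 to 5 over both lines, 0 to 3 in line 1, 2 to 4 in line 2 and 1 to 3 between the lines when 1 library was left out, and 1 in each line and between the lines with no term for kit, the fit without pairing.

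Signs changed in these cases, none past the threshold, given with the range over all fits that left out 1 library. Over both lines, TEAD2 was 0.14 (range -1.14 to 0.14) and ASAP1 -0.0066 (-0.0066 to 0.026) without the SMARTer control, and MYOF -0.24 (-0.24 to 1.04) without the KAPA control. In line 1, FRMD6 was 0.061 without the SMARTer control and 0.071 without the SMARTer library of line 1 (-0.95 to 0.071). Between the lines, without the SMARTer library of line 2, TEAD3 was 0.19 (-0.54 to 0.19), CYR61 0.32 (-0.74 to 0.32) and STK4 0.11 (-0.20 to 0.11). CYR61 was 0.057 without the KAPA library of line 1 and STK4 0.083 without its SMARTer library. THBS1 was 0.10 with no term for kit, 0.93 without the KAPA library of line 1 and 1.02 without that of line 2 (-1.38 to 1.02). The cause was not tested. With 2 libraries a group, the groups' spread rests on few degrees of freedom, and YAP1, WWTR1, CTGF and ANKRD1 lie at the depth limit.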

Other observations

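Some pathway genes lay under the filter of 0.5 RPKM and were tested only in the edgeR fit with no filter, where 4.55% of 22631 entries were called higher and 9.35% lower over both lines. They were named after their values were seen. VGLL3, a vestigial-like cofactor that binds TEAD factors in place of YAP, had 5 and 3 counts in ARID1A-/- line 1, 12 and 18 in line 2 and 122 in ARID1A+/-, against 230 and 218 in control (0.507 and 0.858 RPKM). Its log2 fold change over both lines was -4.93 ± 0.31 (adjusted p = 5.0e-06), and it was at 0.414 times the KAPA control in the ARID1A+/- library (0.329 to 0.519). NUAK2, a kinase and YAP target, had 2 and 5 counts in line 1, 9 and 8 in line 2 and 28 in ARID1A+/-, against 92 and 58 in control (-3.82 ± 0.40, adjusted p = 0.00015). CRIM1, a transmembrane protein and YAP target, was higher in line 2 alone, at 4 and 8 counts in line 1, 184 and 119 in line 2 and 5 in ARID1A+/-, against 15 and 20 in control (line 2 minus control 3.01 ± 0.43, edgeR adjusted p = 0.0013). DOCK5, another YAP target, had 9 and 14 counts in line 1, 39 and 64 in line 2 and 322 in ARID1A+/-, against 124 and 50 in control (-1.88 ± 0.39 over both lines, edgeR adjusted p = 0.0098). The fall of DOCK5 was called in line 1 (-2.98, edgeR adjusted p = 0.0037) and not in line 2 (-0.78, adjusted p = 0.32). For this gene the lines differed past the threshold (-2.20, edgeR adjusted p = 0.0198). ACTA2, smooth muscle actin and an SRF target, was the other way, with 91 and 52 counts in line 1, 73 and 38 in line 2 and 201 in ARID1A+/-, against 45 and 10 in control (1.29 ± 0.35 over both lines, edgeR adjusted p = 0.034). It was called in line 1 (1.47, edgeR adjusted p = 0.0326) and not in line 2 (1.12, adjusted p = 0.0925).

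Likeness was computed as Pearson's r of log2(RPKM + 1) over the 7 libraries, which share their kits and lines, among 8072 entries, for genes chosen after their values were seen. TEAD1 was most like PARP4 (0.991), SLC10A3 (0.988) and PRUNE2 (0.988), and TEAD4 most like HES6 (0.992), B4GALNT3 (0.991) and CELSR2 (0.986). TEAD2 was most like THRB (0.978), IGF2 (0.976) and INS-IGF2 (0.975), an entry that overlaps IGF2. AMOTL2 was most like ZFP36L2 (0.970), NPW (0.967) and BIN1 (0.967). For YAP1 and WWTR1, which rest on 0 to 6 counts a library, no likeness is given.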
